A study of Homo sapiens with 4 samples.

Results

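The circular RNAs described here come from 7 genes of the HUSH silencing system: TASOR, TASOR2, MPHOSPH8, PPHLN1, MORC2, SETDB1 and ATF7IP. They were chosen by gene name: every row of the deposited count table that named 1 of these genes and was not typed as antisense was taken. This gave 478 of 211599 rows, each row being 1 back-splice position, here called a circle. The 7 genes were proposed with the knockdown-against-control values of these libraries in view. Their values in that comparison are therefore given as a description, and no p-value is given for them. Counts of members or of their circles that pass a test are background only.

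HUSH is a nuclear complex that silences integrated retroviruses, young retrotransposons and other foreign-like DNA. TASOR is its scaffold, MPHOSPH8 (also called MPP8) reads the repressive histone mark H3K9me3 through a chromodomain, and PPHLN1 (periphilin) binds RNA. The complex works with MORC2, an ATPase that compacts chromatin, and with SETDB1, a methyltransferase that writes H3K9me3, whose nuclear partner is ATF7IP; TASOR2 is a paralog of TASOR. A circular RNA forms when the splicing machinery joins the end of an exon (the donor) back to the start of the same or an earlier exon (the acceptor). HNRNPL is an RNA-binding protein that regulates splicing and is known to bind CA-rich RNA.

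All 4 libraries came from a radiation-resistant derivative of the breast cancer line MDA-MB-468, an established human line, made by a total of 50 Gy given in fractions. The controls, labelled as wild type, carried a control hairpin (shCtrl), and the knockdown cells stably carried a hairpin against HNRNPL (shHNRNPL), with 2 biological replicates in each group. The extraction protocol names 1 HNRNPL hairpin, so the group rests on a single hairpin in a single line, and the irradiation history is shared by both groups. RNA was reverse transcribed with Induro, an enzyme that can run around a circle repeatedly, and was read on a nanopore sequencer; the stated purpose was to find circular RNA that depends on HNRNPL. No row examined named HNRNPL, so the knockdown itself rests on the labels.

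Total counts were between 282737 and 556578 per library, and values below are counts per 100000 of the library total. A count of 0 allows up to 3 counts, which is between 0.539 and 1.06 per 100000 depending on the library. Control replicate 1 stood apart from the rest: intron-type circles took 19.7% of its counts, against 9.93% to 10.6% in the other 3 libraries. Of the epithelial markers, EPCAM had 108 circular counts, CDH1 42, EGFR 200 and KRT5 2, whereas KRT8, KRT18 and the leukocyte, endothelial and fibroblast markers PTPRC, PECAM1, COL1A1, COL1A2 and PDGFRB named no row examined. Of these, EGFR (24.3 and 9.34 per 100000 in the control libraries, 4.24 and 5.38 in the knockdown libraries) and EPCAM (7.41 and 6.83, then 5.31 and 5.12) were lower in both knockdowns without passing the test, and CDH1 overlapped; their part in the results below was not tested. A change in the number of cells that make a circle and a change in its amount per cell cannot be told apart in bulk RNA, and linear RNA of these genes was not analysed here.

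Of the 478 circles, 449 had at least 1 count, 97 had at least 10 counts over the 4 libraries and 26 had at least 40. They held 9206 counts, 0.541% of all counts, and TASOR, ATF7IP and TASOR2 together held 96.7% of these. Exon circles numbered 390 and intron circles 88. The canonical AG-GT pair of splice signals was listed for 442 (92.5%) of them, against 85.0% of all circles that were not antisense. Both shares include entries listed with an offset. Pooled over the 7 genes, the exon circles had a median of 1791 nt and 7 blocks, a block being 1 stretch of genome joined into the circle. Over all 119628 exon circles the medians were 1233 nt and 6 blocks. Circles made of a single exon were 6.67% of the exon circles of these genes and 17.2% of all exon circles. The pooled values follow TASOR, TASOR2 and ATF7IP, whose medians were 1884, 1837 and 2078.5 nt. The medians of PPHLN1 (633.5 nt), MORC2 (780 nt) and MPHOSPH8 (1175 nt) lay below that of all exon circles, and SETDB1 was at 1278 nt. Single exons made up 28.6% of the 14 MORC2 and 20% of the 5 SETDB1 exon circles.

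The scaffold gene TASOR stood higher in both knockdown libraries than in either control. The 2 control libraries held 484 and 991 TASOR counts, and the 2 knockdown libraries held 797 and 1039. Scaled to the library totals, these were 102 and 178 per 100000 in the control libraries and 282 and 266 in the knockdown libraries. The control mean was 140 ± 53.5 (SD, n = 2), the knockdown mean 274 ± 11.2 (SD, n = 2), and their ratio 1.95. The groups did not overlap. The log2 fold change from edgeR's fit over all host genes was 1.24 ± 0.47 (SE). Leaving out control replicate 1 gave 0.86, leaving out control replicate 2 gave 1.99, and a fit of exon circles alone gave 1.25. With library totals in place of TMM scaling, the value was 0.97.

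The partners of TASOR showed no such separation, apart from MPHOSPH8. The paralog TASOR2 had 61.6 and 81.8 counts per 100000 in the controls, beside 85.2 and 69.9 in the knockdowns, so the groups overlapped, and its log2 fold change was 0.40 ± 0.38 (SE). The H3K9me3 reader MPHOSPH8 had 2.75 and 3.41 per 100000 in the control libraries and 3.89 and 4.35 in the knockdown libraries. These groups did not overlap, but the levels rest on 13, 19, 11 and 17 counts, and the log2 fold change was 0.71 ± 0.57 (SE).

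The RNA-binding subunit PPHLN1 had 9.95 and 12.6 per 100000 in the controls, beside 9.20 and 11.3 in the knockdowns, which overlapped, with a log2 fold change of 0.16 ± 0.40 (SE). Its sign depended on scaling, since the log2 fold change was -0.14 with library totals in place of TMM. The chromatin compactor MORC2 had 3.39 and 2.16 per 100000 in the control libraries and 3.18 and 3.58 in the knockdown libraries, from 51 counts in all, with a log2 fold change of 0.62 ± 0.61 (SE). The methyltransferase SETDB1 had 1, 6, 0 and 1 counts, too few for the fit, and the library with 0 counts allows up to 1.06 per 100000.

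The SETDB1 partner ATF7IP held more circular counts than any other member, 4329 in all. It had 200 and 344 counts per 100000 in the controls, beside 227 and 212 in the knockdowns. The spread between its controls covered both knockdown values, and the log2 fold change was -0.04 ± 0.47 (SE). Its sign changed with the control that was left out, from -0.41 without control replicate 1 to 0.71 without control replicate 2.

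**Figure D1:**
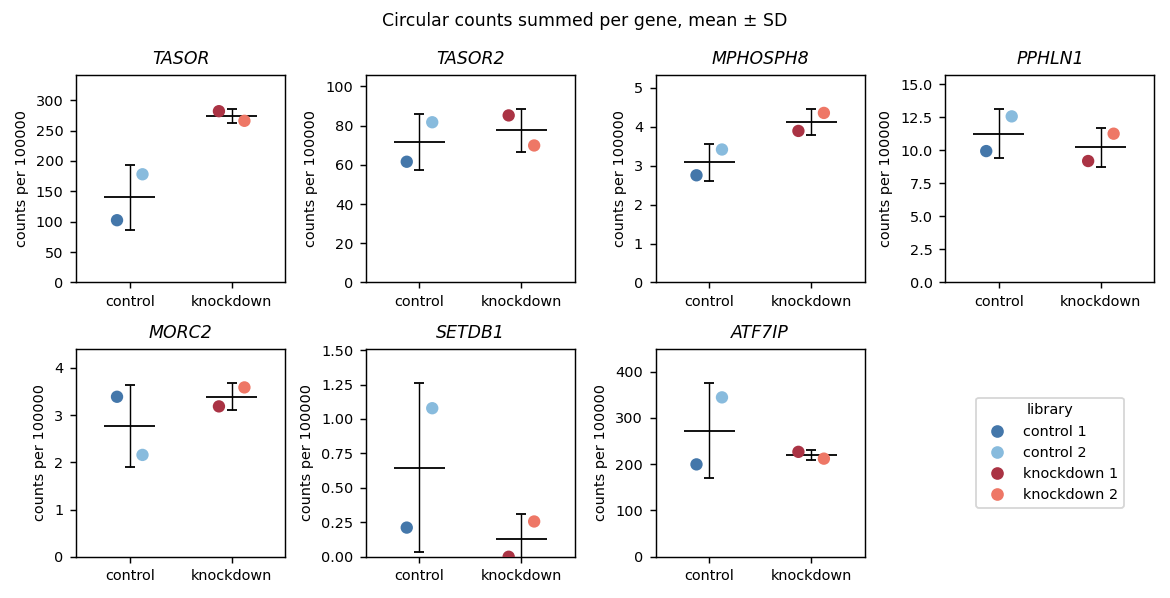
Circular counts summed per gene, in counts per 100000 of the library total, for the 7 genes in the control and knockdown libraries; points are libraries, horizontal lines are means and bars are SD (n = 2). TASOR and MPHOSPH8 are the genes whose knockdown points both lie above both controls, and the TASOR mean goes from 140 to 274.

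Set against all host genes, the members gave no call. edgeR's quasi-likelihood test at an adjusted p of 0.05 called 0 of the 6 members tested, and 37 of 8379 host genes (0.442%), of which 37 were higher (0.442%) and 0 were lower (0.00%). At an unadjusted p under 0.05 it counted 1 of 6 members and 13.8% of host genes, and DESeq2 called 0 of the 5 members to which it gave an adjusted p, against 4.80% of all host genes with one. The groups did not overlap in 2 of the 7 members, both higher in the knockdown, against 15.3% of tested host genes higher and 36.7% lower. The median log2 fold change over all tested host genes was -0.26, and -0.58 with library totals, so a value of 0 lies above the middle of the genes. The set was proposed on this comparison, and these shares are given as background only.

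TASOR (ENSG00000163946.14) lies at chr3:56620132-56683265 on the minus strand of GRCh38.p14, per the RefSeq gene table. It gave 182 circles, of which 172 had counts and 50 had at least 10. The most abundant over all libraries summed is an exon circle at chr3:56660731-56673725 with 10 blocks and 1037 nt. It ranks first through its knockdown counts and led in neither control. In control replicate 1 it had 7 counts, against 41 for the circle at chr3:56638706-56673725. In control replicate 2 it had 78, against 99 for the circle at chr3:56639986-56673725. This circle was thus picked partly by the contrast described below. Its blocks run from 32 to 162 nt, the first being the 146-nt block that ends at the acceptor, position 56673725. The caller also listed a second isoform of 1720 nt, in which the eighth block is 789 nt in place of 106 nt; the table gives no count per isoform.

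Most of the difference seen for the gene lay in this 10-block circle. It had 7 and 78 counts in the control libraries and 341 and 475 in the knockdown libraries. That is 1.48 and 14.01 per 100000 in the controls, against 121 and 122 in the knockdowns. The group means were 7.75 ± 8.86 and 121 ± 0.72 (SD, n = 2), a ratio of 15.6, and the circle-level log2 fold change was 4.01 ± 0.84 (SE). The controls differed widely from each other, and both lay far below the knockdowns. Leaving out control replicate 1 gave a log2 fold change of 3.28, and leaving out control replicate 2 gave 6.17.

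The sum of all other TASOR circles overlapped between the groups. It was 101 and 164 counts per 100000 in the controls, beside 161 and 144 in the knockdowns. With the 10-block circle left out of the sum, the gene's log2 fold change went from 1.24 to 0.48 ± 0.44 (SE). The circle's share of TASOR counts was 1.45% (95% Wilson interval 0.702 to 2.95) and 7.87% (6.35 to 9.71) in control replicates 1 and 2. In knockdown replicates 1 and 2 it was 42.8% (39.4 to 46.2) and 45.7% (42.7 to 48.8). These intervals cover counting error only, since amplified copies carry no molecular identifiers. The same share for the leading TASOR2 circle lay between 14.1% and 18.7% in the 4 libraries, with no order by group.

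**Figure D2:**
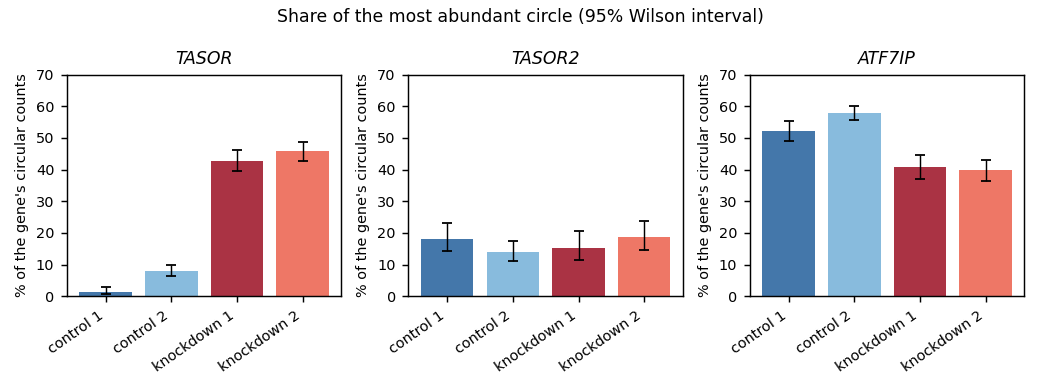
Share of each gene's circular counts held by its most abundant circle over all libraries summed, in percent, for TASOR, TASOR2 and ATF7IP in each library. Bars start at 0 and error bars are 95% Wilson intervals. The TASOR bars reach 1.45% and 7.87% in the control libraries, against 42.8% and 45.7% after knockdown, while the ATF7IP bars are lower in the knockdowns.

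The next most abundant TASOR circles were larger and differed little. The circle of 23 blocks and 4352 nt at chr3:56623644-56673725 had 8.47 and 16.9 per 100000 in the control libraries and 17.7 and 17.2 in the knockdown libraries, a log2 fold change of 0.44 ± 0.38 (SE). The circle of 15 blocks at chr3:56639986-56673725 had 6.77, 17.8, 13.4 and 16.4 per 100000 in control 1, control 2, knockdown 1 and knockdown 2. In the same order, the circle of 22 blocks at chr3:56624479-56673725 had 4.66, 12.6, 14.1 and 7.17 per 100000. For the last 2 of these, the groups overlapped.

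The circle of 16 blocks at chr3:56638706-56673725 had 8.68 and 5.57 per 100000 in the controls, beside 9.20 and 8.45 in the knockdowns, again with overlap. A circle of 16 blocks at chr3:56623644-56662412, which starts further along the gene, had 4.87, 9.34, 5.66 and 3.33 per 100000 in the same order of libraries. The circle of 10 blocks at chr3:56633044-56662490 had 5.08 and 5.39 per 100000 in the control libraries and 5.66 and 6.66 in the knockdown libraries. The circle with the fewest blocks of the 8, 4 blocks and 1532 nt at chr3:56633044-56641752, was lower in both knockdowns, at 3.39 and 5.39 per 100000 in the controls, beside 2.12 and 2.56 in the knockdowns. Its log2 fold change was -0.92 ± 0.48 (SE).

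**Figure D3:**
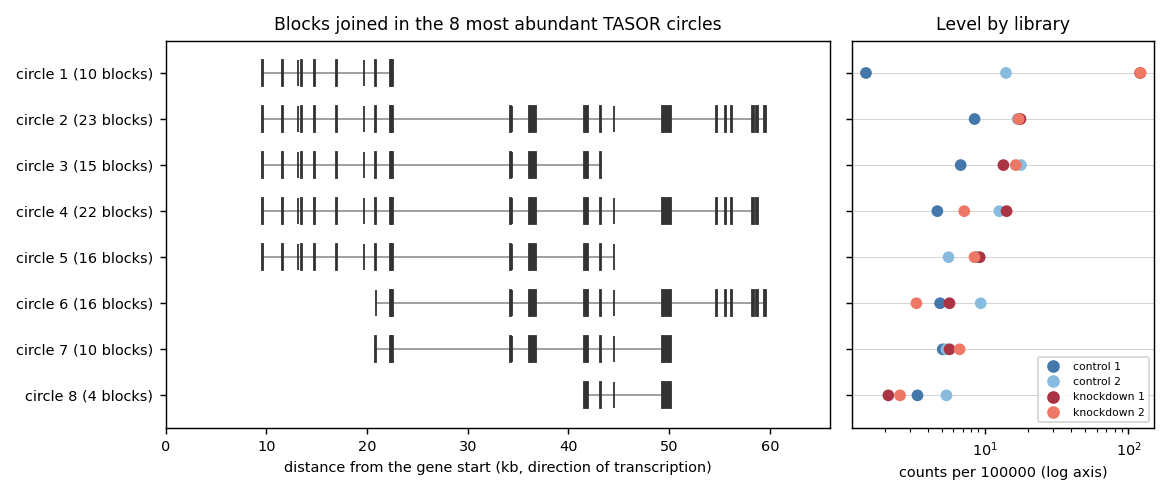
Left, the blocks of the 8 most abundant TASOR circles in the direction of transcription, in kb from the start of the gene, with lines joining blocks of 1 circle; right, the level of each circle in each library, in counts per 100000 on a log axis. Circles 1 to 5 begin at the same block, and circle 1 is the one whose knockdown points, at 121 and 122, lie far to the right of its controls.

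Of these 8 circles, 5 use the same acceptor, position 56673725, and differ in the donor. In all, 26 TASOR circles share this acceptor and hold 59.3% of the gene's counts. Their sum was 39.6 and 80.5 per 100000 in the control libraries and 205 and 192 in the knockdown libraries, with no overlap. Without the leading circle, the other 25 summed to 38.1 and 66.5 per 100000 in the control libraries and 84.5 and 70.2 in the knockdown libraries, a ratio of 1.48 in place of 3.31, again with no overlap. Circles with any other acceptor summed to 62.9 and 97.6 per 100000 in the controls, beside 76.8 and 74.3 in the knockdowns, which overlapped. The donor of the 10-block circle, position 56660731, was used by 5 circles, and the 4 that paired it with another acceptor had 12 counts in all.

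Along this acceptor, circles to either side of the leading donor were summed apart. The 5 circles with fewer blocks than the leading one, ending at an earlier donor, had 5 and 13 counts in the control libraries and 28 and 33 in the knockdown libraries. Scaled, these were 1.06 and 2.34 per 100000 in the controls, beside 9.90 and 8.45 in the knockdowns, a ratio of 5.41. Of these 5 circles, 4 had at least 10 counts, and these 4 were higher in both knockdowns than in both controls. The 8-block circle at chr3:56662385-56673725, for example, had 0 counts in both controls and 7 and 8 in the knockdowns. Like it, the circles of 4 and 7 blocks reached 10 counts through the knockdowns, with 0 and 2 and with 1 and 0 counts in the controls. Their direction was thus largely fixed by the filter. The circle of 5 blocks, with 1, 2, 0 and 2 counts in control 1, control 2, knockdown 1 and knockdown 2, fell below the filter and overlapped. The 18 circles with more blocks had 36.8 and 63.8 per 100000 in the control libraries and 74.3 and 61.7 in the knockdown libraries, so the groups overlapped. Of the 11 among them with at least 10 counts, 3 were higher without overlap and 0 were lower, and over all circles with at least 10 counts 23.2% were higher and 22.9% lower. The 13-block circle at chr3:56646522-56673725 had 4 and 2 counts in the controls, beside 17 and 12 in the knockdowns. The split at the leading donor and these 2 examples were chosen after the values were seen.

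**Figure D4:**
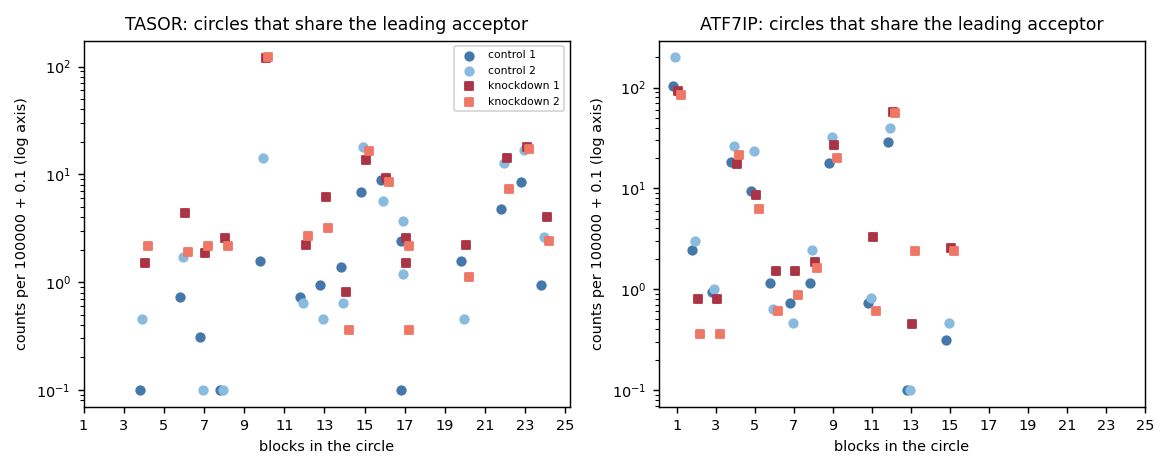
Level of each circle with at least 10 counts over the 4 libraries that uses the leading acceptor of TASOR (left) or ATF7IP (right). Levels are in counts per 100000 plus 0.1 on a log axis, against the number of blocks in the circle. Round points are control libraries and squares are knockdown libraries. At 10 blocks the TASOR knockdown squares stand at 121 and 122 above controls at 1.48 and 14.01, and at 1 block the ATF7IP squares lie below the controls.

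Over the 50 TASOR circles with at least 10 counts, 14 were higher in both knockdowns than in both controls, 7 were lower and 29 overlapped, where 23.2% of all such circles were higher and 22.9% lower. Detection did not separate the groups. At an equal depth of 282737 counts the expected number of TASOR circles seen was 81.4 and 89.1 in the control libraries and 93 and 86.9 in the knockdown libraries. Alternative internal isoforms were listed for 40 of the 182 circles, with up to 4 per circle. TASOR exon circles had a median of 9 blocks and 1884 nt, and 2.45% were single exons.

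The RefSeq start-site table holds 3 windows for TASOR, and 1 of them lies inside the span of the leading circle. It belongs to an annotated internal start, and 57 TASOR circles with 2045 counts span it. The 250 bases before that start, chr3:56664047-56664296 on the minus strand of GRCh38.p14, fall between the sixth and seventh blocks of the 10-block circle, in RNA that splicing removes from the listed structure. The stretch is shown because it is the intronic sequence of the leading circle held in the tables used here. For ATF7IP, the 250 bases at chr12:14417718-14417967 on the plus strand are the start-site stretch closest before its leading acceptor, 5942 nt upstream. Both were searched for the CA-rich motif CACACA on either strand (CACACA or TGTGTG), and no letters are in capitals because neither holds it. The motif and the stretches were chosen after the data were seen.

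TASOR internal start: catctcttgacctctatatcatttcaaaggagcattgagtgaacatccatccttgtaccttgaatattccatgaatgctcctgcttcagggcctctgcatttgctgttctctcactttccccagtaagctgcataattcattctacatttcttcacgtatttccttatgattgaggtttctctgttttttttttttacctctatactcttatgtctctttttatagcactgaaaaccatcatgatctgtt
ATF7IP internal start: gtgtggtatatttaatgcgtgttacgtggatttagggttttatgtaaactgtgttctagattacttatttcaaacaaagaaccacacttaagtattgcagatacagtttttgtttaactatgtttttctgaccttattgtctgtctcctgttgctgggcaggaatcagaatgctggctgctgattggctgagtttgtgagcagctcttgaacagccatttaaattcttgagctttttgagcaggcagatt

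Counted on either strand, the motif stood in 4 of the 17 windows of 300 bases held for the 7 genes, and in 17.2% of all 35116 windows. The 4 windows belong to TASOR2, ATF7IP and MORC2, and 2 of them are ATF7IP's. Read on the strand of the gene, 1 ATF7IP window holds CACACA. The others hold TGTGTG, so their CACACA lies on the opposite strand. The absence of these letters from a window says nothing about binding elsewhere in the gene.

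ATF7IP (ENSG00000171681.13, chr12:14365682-14502930, plus strand) drew nearly all of its counts from 1 acceptor. Position 14423909 was used by 19 of its 88 circles, and these held 94.8% of its counts, and this share lay between 93.2% and 95.7% in the 4 libraries. The leading circle is a single exon of 1565 nt at chr12:14423909-14425473. It had 493 and 1110 counts in the controls, beside 261 and 329 in the knockdowns, that is 104 and 199 per 100000 against 92.3 and 84.2. Both knockdowns lay below both controls, though the lower control was close to them, and the log2 fold change was -0.80 ± 0.33 (SE), with -1.01 when control replicate 1 was left out and -0.40 when control replicate 2 was. Its share of ATF7IP counts was 52.3% (95% Wilson interval 49.1 to 55.5) and 57.9% (55.7 to 60.1) in the controls, against 40.7% (37.0 to 44.6) and 39.7% (36.5 to 43.1) in the knockdowns.

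The second ATF7IP circle went the other way. It has 12 blocks and 3287 nt at chr12:14423909-14481185, with 29 and 39.9 per 100000 in the control libraries and 56.9 and 55.6 in the knockdown libraries. The groups did not overlap, and the log2 fold change was 0.67 ± 0.30 (SE). The 9-block circle at chr12:14423909-14466590 had 17.8, 32.0, 26.9 and 19.7 per 100000 in control 1, control 2, knockdown 1 and knockdown 2, with overlap. The 4-block circle at chr12:14423909-14438267 also overlapped, at 18.0, 26.2, 17.3 and 21.5 per 100000 in the same order.

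The 5-block ATF7IP circle at chr12:14423909-14447053 was lower in both knockdowns, at 9.31 and 23.2 per 100000 in the controls, beside 8.49 and 6.15 in the knockdowns, a log2 fold change of -1.15 ± 0.47 (SE). Some circles from this acceptor ran past the RefSeq end of the gene. The longest, with 15 blocks at chr12:14423909-14541249, also names ENSG00000255649 and had 1 and 2 counts in the control libraries and 7 and 9 in the knockdown libraries; it was picked out after its values were seen. All ATF7IP circles but the leading one summed to 95.3 and 145 per 100000 in the controls, beside 134 and 128 in the knockdowns, which overlapped. Among the 18 ATF7IP circles with at least 10 counts, 4 were higher without overlap, 4 were lower and 10 overlapped, against the same 23.2% and 22.9% of all such circles.

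The paralog TASOR2 (ENSG00000108021.22, chr10:5684838-5763740, plus strand) spread its counts over many circles. It gave 145 circles, 138 with counts, and circles with fewer than 10 counts held 30.4% of its counts, against 13.0% for TASOR and 4.18% for ATF7IP. Its leading circle, with 4 blocks and 1679 nt at chr10:5730916-5742364, was nearly level, at 11.2 and 11.5 per 100000 in the controls, while each knockdown stood at 13.1. The knockdown values were above the controls, with a log2 fold change of 0.14 ± 0.35 (SE). The 5-block circle at chr10:5699525-5714207 had 3.39 and 8.62 per 100000 in the control libraries and 12.4 and 9.47 in the knockdown libraries, a log2 fold change of 0.85 ± 0.47 (SE).

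The other TASOR2 circles named by abundance end at donor 5731203, which 11 circles share with 27.2% of the gene's counts. The 8-block circle at chr10:5720544-5731203 had 2.96, 5.57, 5.31 and 3.58 per 100000 in control 1, control 2, knockdown 1 and knockdown 2. The 12-block circle at chr10:5712394-5731203 had 0.847, 5.39, 3.54 and 1.79 per 100000 in the same order. The 3-block circle at chr10:5726885-5731203 had 3.18 and 3.41 per 100000 in the controls, beside 2.83 and 1.79 in the knockdowns, the one of these 3 whose groups did not overlap. The shared donor as a whole had 79, 153, 62 and 49 counts in the same order. Scaled, these were 16.7, 27.5, 21.9 and 12.5 per 100000, so the groups overlapped. Of the 21 TASOR2 circles with at least 10 counts, 6 were higher without overlap, 5 were lower and 10 overlapped, beside 23.2% and 22.9% of all such circles.

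PPHLN1 (ENSG00000134283.18, chr12:42326167-42448621, plus strand) also centred on a donor. Position 42398994 was used by 7 of its 24 circles and held 66.3% of its counts. These circles differ in how early they begin: chr12:42355161-42398994 with 6 blocks had 2, 18, 5 and 11 counts in control 1, control 2, knockdown 1 and knockdown 2. In the same order, chr12:42351885-42398994 with 7 blocks had 3, 11, 7 and 8 counts, chr12:42374863-42398994 with 5 blocks had 4, 9, 4 and 11, and chr12:42374638-42398994 with 6 blocks had 5, 9, 5 and 4. Scaled to library totals, the 7-block circle was higher in both knockdowns and the other 3 overlapped. The last of the 5, at chr12:42446241-42447764, had 23 counts in control replicate 1 and 0 in the other 3 libraries. Of the 187 PPHLN1 counts, 141 lay in circles that also name another gene, and a sum of the remaining circles, in which the circle at chr12:42446241-42447764 weighs heavily, gave a log2 fold change of -2.10.

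MPHOSPH8 (ENSG00000196199.14, chr13:19633659-19673441, plus strand) gave 12 circles with 60 counts, of which 31 ended at donor 19670363. Its leading circle, typed as intron, with 6 blocks at chr13:19660152-19670363, had 3, 4, 3 and 6 counts in control 1, control 2, knockdown 1 and knockdown 2. Scaled, these were 0.635, 0.719, 1.06 and 1.54 per 100000, so the groups did not overlap, with a log2 fold change of 0.87 ± 0.97 (SE). The 5-block exon circle at chr13:19661698-19670363 had 3 and 5 counts in the controls, beside 2 and 1 in the knockdowns. MORC2 (ENSG00000133422.14, chr22:30925130-30968774, minus strand) gave 22 circles, and 1 reached 10 counts: an 11-block circle at chr22:30939621-30958694 with 1, 7, 2 and 2 counts in control 1, control 2, knockdown 1 and knockdown 2. SETDB1 (ENSG00000143379.13, chr1:150926263-150964737, plus strand) gave 5 circles, 4 of them with counts. Most single circles of these 3 genes held fewer than 10 counts over the 4 libraries and were not tested.

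Across the members' 97 circles with at least 10 counts, 26 were higher in both knockdowns than in both controls and 16 were lower, against 23.2% and 22.9% of all 21576 such circles. With at least 40 counts, 6 of 26 were higher and 5 were lower, against 29.7% and 28.9% of all. The TASOR 10-block circle was the one member circle with at least 40 counts whose means also differed 4-fold without overlap. Among all circles, 12.2% were so in the higher direction and 3.16% in the lower. edgeR's adjusted test called 0 of the 97 and 0 of all 21576 circles (0.00%); at an unadjusted p under 0.05 it counted 11 of the 97, 9 of them higher, and 13.6% of all. DESeq2 gave 56 of the 97 an adjusted p and called 2 (10.5% of all circles with one were called), both of TASOR and both from the shared acceptor: the 10-block circle and the 13-block circle at chr3:56646522-56673725. The members were proposed on this same comparison, so these counts and calls are background only and no independent support. The median log2 fold change was 0.11 over the 97 circles and -0.41 over all circles tested. Replicates of the 26 circles with at least 40 counts differed by a median of 0.85 on the log2 scale between controls and 0.35 between knockdowns; over all 4944 such circles these were 0.71 and 0.33.

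Other genes of heterochromatin and HUSH-linked silencing were listed by function: 29 genes, of which 22 had circular counts and 19 could be tested. edgeR's adjusted test called 0 of the 19 in either direction, with 4 at an unadjusted p under 0.05, against 0.442% and 13.8% of all host genes. DESeq2 called 4 of the 15 to which it gave an adjusted p, all higher, against 4.80% of all such host genes. Their median log2 fold change was 0.12, with 12 above 0 and 7 below, beside -0.26 for all host genes. By group, the medians were 2.43 for the 3 tested H3K9 methyltransferases and cofactors, 1.24 for the 4 other silencing genes and 0.81 for the 3 genes of the NEXT complex, which feeds nuclear RNA to decay. They were 0.04 for the 4 HUSH-linked effectors, -0.24 for the 3 H3K9 demethylases and -1.28 for the 2 H3K9me3 readers.

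The 3 listed genes with the most counts were ZNF638, MORC3 and ATRX. ZNF638 (NP220), which silences unintegrated retroviral DNA with HUSH, had 257 and 376 per 100000 in the control libraries and 292 and 274 in the knockdown libraries, with overlap. MORC3, an ATPase of the same family as MORC2, had 40.2 and 63.2 per 100000 in the controls, beside 68.3 and 80.1 in the knockdowns, a log2 fold change of 0.80 ± 0.41 (SE). ATRX, a chromatin remodeler of heterochromatin, had 19.5 and 25.0 per 100000 in the control libraries and 91.6 and 100 in the knockdown libraries. Its groups lay far apart, with a log2 fold change of 2.40 ± 0.39 (SE). The other 3 that DESeq2 called, SETDB2, SUV39H2 and SMARCAD1, had log2 fold changes of 2.43 ± 0.40, 2.92 ± 0.77 and 1.85 ± 0.46 (SE), and were picked out after their values were seen.

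The host genes closest to TASOR in pattern over the 4 libraries were HLTF, PKN2 and CEP57. Likeness was the distance between log2(counts per 100000 + 0.5) values centred on each gene's mean, among 2873 genes with at least 100 counts. The distances were 0.10, 0.11 and 0.13, against a median of 1.53. HLTF, a helicase-like factor of replication fork remodelling, had 11.2 and 19.8 per 100000 in the controls, beside 33.6 and 32.3 in the knockdowns.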

How the data were processed

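Sample titles gave the groups. The authors deposited whole-number counts per back-splice position, not normalized, with CIRI-long as the caller, per the file headers and a column of each row; build GRCh38.p14 and DESeq2, with no role, are named in the submitters' processing notes. Base caller, aligner and filters were not given in the sources used here. A second deposited table holds the same counts per 100000 and was not used. Host gene sums counted a circle for every gene it named, antisense circles left out. Sums and circles of at least 10 counts in all were tested with edgeR 4.0.16 (quasi-likelihood, default glmQLFit, TMM, Benjamini-Hochberg over all features, R 4.3.3), all 4 libraries sharing 1 estimate of spread. Data were also simulated from these libraries with 1 common spread for all features and 8-fold changes in features of at least 40 counts. The host gene test recovered 63% of the changes and the circle test 0.5%. With a dispersion of 0.01 these were 98% and 93%. The real features differ in spread, so these shares are not the power of the tests on the real counts. DESeq2 1.42.0 was an alternative. Log2 fold changes compare knockdown with control and are TMM-scaled unless stated, unlike the values per 100000. The scaling was computed separately for host gene sums and for circles. SEs come from the fit.

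Same-numbered libraries deviated together with a correlation of 0.07 over 4944 circles, and the main fits did not pair them. With 2 libraries a group, this value cannot tell whether same-numbered libraries were handled together. Fits with the replicate number as a block are given below. Promoter windows (250 bases before to 50 after a start) are from RefSeq; all 7 genes matched. The members, lists and tests were chosen with earlier results of these data known, including how each dispersion method behaves. Named circles were the 8 (TASOR) or 5 (other genes) with the most counts among those with at least 10, plus any with at least 40 counts, no overlap and a 4-fold difference; named list genes were those that passed, or the 3 with the most counts. Left out were 24 antisense rows of the members, with 34 counts.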

Additional observations from a re-analysis of the deposited data

How the results depend on the processing

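The number of host genes called moved by more than 1.5 times from 37 under most settings. DESeq2 gave 184, no filter 369 and a filter of at least 40 counts 108; it was 116 with at least 5 counts in each of 2 libraries, 81 with exon circles only, 88 with circles that name 1 gene and 0 with the newer dispersion method. With the replicate number as a block it was 300 (259 higher, 41 lower). With library totals in place of TMM it was 55, of which 5 were lower. Leaving out 1 library gave between 0 and 2775: 1672 without control replicate 1, 2775 without control replicate 2 and 0 without either knockdown. Circles called went from 0 to 1085 in DESeq2, to 471 unfiltered, 562 from 40 counts up, 1422 with at least 5 counts in each of 2 libraries, 302 with exon circles only and 1620 with the replicate block. Leaving out 1 library gave between 0 and 6421 circles, with 4485 without control replicate 1 and 6421 without control replicate 2. The causes were not tested.

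The TASOR log2 fold change stayed above 0 in all 14 alternatives, at 0.86 to 1.99 with 1 library left out and at 0.48 without its leading circle. That circle's own value was 3.28 to 6.17 with 1 library left out. With 1 library left out, TASOR2 was at 0.15 to 0.90, MPHOSPH8 at 0.52 to 1.15, PPHLN1 at -0.042 to 0.63, MORC2 at 0.52 to 0.89 and ATF7IP at -0.41 to 0.71. MPHOSPH8 was at 0.42 with library totals and 0.16 with exon circles only, and PPHLN1 at -2.10 with circles that name 1 gene. With library totals, TASOR was at 0.97, TASOR2 at 0.11, PPHLN1 at -0.14, MORC2 at 0.29 and ATF7IP at -0.31. The leading TASOR circle was then at 3.95. The replicate block moved TASOR to 1.33 and ATF7IP to 0.05. The knockdown-minus-control difference in the share of TASOR counts in its leading circle, 39.6 percentage points, lay between 36.4 and 43.0 in 7 alternatives. Leaving out the leading circles, and refitting them alone, were added after the data were seen.

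With 2 libraries a group and control replicate 1 apart in its intron share, the spread between controls limits the sums of TASOR and ATF7IP and the leading TASOR circle, while the leading TASOR2 circle had controls of 11.2 and 11.5 per 100000. Low counts limit MPHOSPH8, MORC2 and SETDB1, and amplified copies make counting error a lower limit.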
